A study of Mus musculus with 59 samples.

Results

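Prefrontal cortex RNA of mice heterozygous for Ank2 (HT) was compared with that of wild-type mice (WT), where both genotypes had received only vehicle. The comparison uses every library whose title names vehicle, 20 of the 59 libraries of the series: 10 HT (5 females, 5 males) and 10 WT (5 females, 5 males). All mice were C57BL/6J, and tissue was taken on postnatal day 25. Vehicle, like the drugs of the other groups, reached the pups in the milk of the mother for 3 weeks (days 3 to 24). The drug-treated mice, 20 HT and 19 WT libraries, had received fluoxetine or lithium, and their genotype effect is set beside that in vehicle. They also enter 1 estimate of the spread shared by all 59 libraries. The SE, interval and limma p of each vehicle comparison rest on that shared estimate. The labels give the genotype as heterozygous without naming the allele, and they give no litter or mother, so litter and genotype cannot be separated. They do not say that each library is 1 animal; p-values therefore measure the spread between libraries.

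Ank2 codes for ankyrin-B, a scaffold protein that ties membrane proteins to the spectrin skeleton under the membrane. In neurons it is needed for axonal transport and for keeping cell adhesion molecules such as L1cam and ion transporters in place. ANK2 is among the genes whose loss-of-function variants in people are associated with autism. A heterozygote keeps 1 unaltered copy, so the comparison asks how far the mRNA of Ank2 itself drops and which other mRNAs of the young cortex differ with it.

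The normalized values of a vehicle library summed to between 30.29 M and 32.69 M (M, mega), with an estimated 27.22 M to 36.34 M reads behind them, with 22850 to 23745 genes above 0. Xist was at 29462 to 43149 in the female libraries and at 0 to 71 in the male libraries, as labelled. Libraries differed first along an axis that held marker genes of neighbouring regions. The leading principal component had 30% of the variance of 13441 autosomal genes. Olfactory bulb genes such as Omp and Eomes were at its low end. At its high end were striatal genes such as Drd2 and Ppp1r1b, beside others such as Gdf1 and Wnt2. On this component HT males lay at 2.74 to 23.85 and WT males at -5.5 to 14.29, HT females at -22.39 to 0.28 and WT females at -32.68 to 2.81. A further library stood apart in another way. HT female replicate 1 had a length slope (the slope of the log2 deviation of a gene on its log2 transcript length) of 0.10, against -0.04 to 0.02 in the other 19 libraries. Where the count of a list moved by over 1.5 times on leaving such libraries out, both counts are given.

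Ank2 was lower in every HT library than in any WT library. Its normalized values were 19255, 19664, 18539, 18998 and 19633 in the 5 HT females, against 23284, 26774, 28906, 29220 and 30855 in the 5 WT females. In males they were 19714, 19708, 19888, 19319 and 21059 in HT, against 28861, 28896, 28950, 29392 and 29569 in WT. The HT libraries were tightly grouped in both sexes, and the widest group was that of the WT females. Its lowest library, WT female replicate 1, also had the highest olfactory bulb level (1.83 on the log2 scale described below). Ank2 fell by 0.54 on the log2 scale (SE 0.04, n = 10 per genotype), which is 0.689-fold with a 95% interval of 0.653 to 0.727, and the limma adjusted p was 4.99e-15. An exact permutation test over the 63504 ways to exchange genotypes within each sex gave a two-sided p = 3.1e-05, the smallest it can give. The interval lies above 0.5-fold.

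Ank2 was lower in HT in both sexes and under all 3 treatments. It was 0.694-fold in females and 0.684-fold in males, and the difference of the log2 changes was -0.02 (SE 0.08, adjusted p = 1). Without WT female replicate 1 the log2 change in females was -0.59. In the fluoxetine libraries Ank2 averaged 21590 ± 1680 in HT (SD, n = 10) and 32530 ± 1880 in WT (SD, n = 9), which is 0.662-fold. In the lithium libraries it averaged 20080 ± 1440 in HT and 27510 ± 1080 in WT (SD, n = 10 each), which is 0.729-fold. The log2 change of Ank2 was -0.59 (SE 0.04) under fluoxetine and -0.46 (SE 0.04) under lithium, and the difference between these drugs was not tested. The log2 change in vehicle minus the mean of those under the drugs was -0.01 (SE 0.05).

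**Figure D1:**
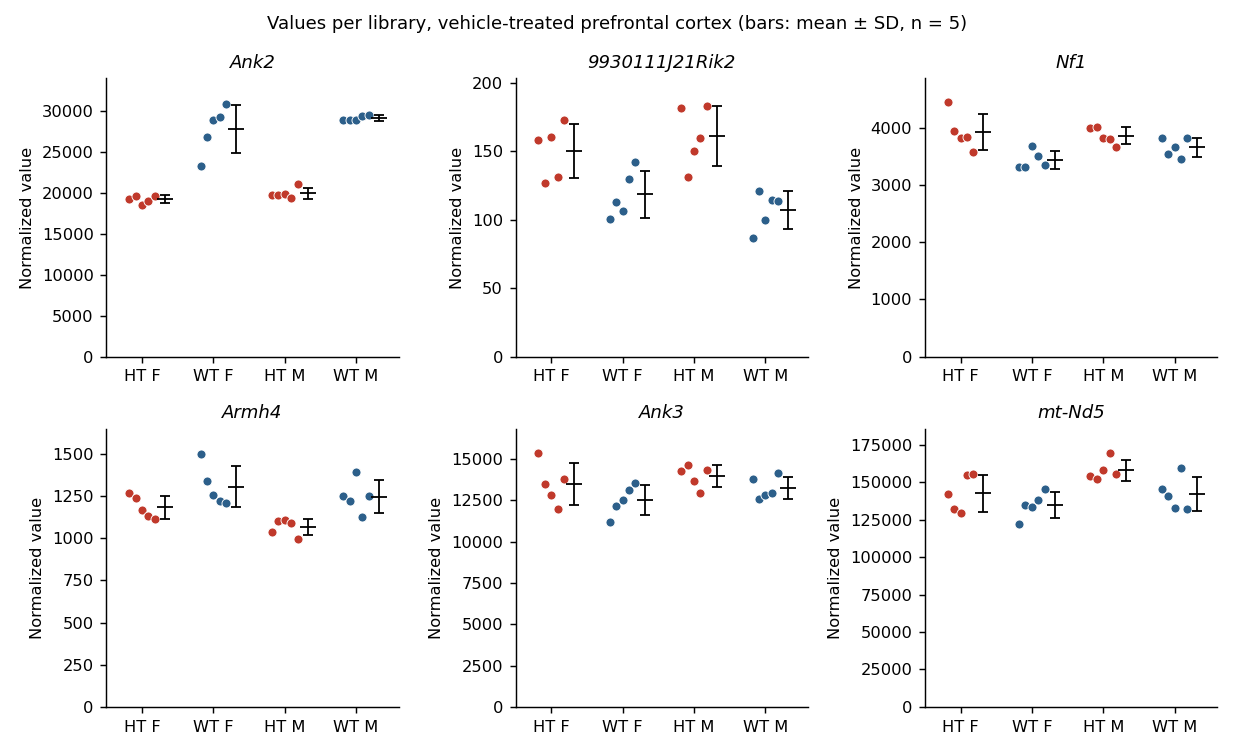
Normalized value (vertical axes, from 0) of 6 genes in each vehicle library; points run from replicate 1 to 5 within HT females (HT F), WT females (WT F), HT males (HT M) and WT males (WT M), and bars give the mean ± SD of 5 libraries. The groups separate for Ank2 in both sexes (HT at 21059 or less, WT at 23284 or more), while the other 5 genes overlap between the genotypes.

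Ank2 was alone in reaching an adjusted p under 0.05 among the 16919 genes tested with limma (0.00591%), in both sexes together, in females and in males. A further 577 genes had an unadjusted p under 0.05; with Ank2 they make up 3.42% of the genes tested, 293 higher and 285 lower in HT. The share with an unadjusted p under 0.05 was 3.3% in females and 2.44% in males. In a limma fit of only the vehicle libraries Ank2 was again the sole gene called. There 756 genes had an unadjusted p under 0.05, in place of 578. Over all genes the median log2 change was -0.000399. The estimate was higher in HT for 49.7% of genes and lower for 50.3%. It was higher for 51.1% and lower for 48.8% in females, and higher for 49.3% and lower for 50.7% in males, and the counts of list members below are to be read against these shares. The 10 HT and 10 WT libraries did not overlap for 1 gene (0.00591%), again Ank2. Within a sex, 5 libraries per genotype did not overlap for 97 genes in females (0.573%) and 120 in males (0.709%), and Ank2 was the sole gene to do so in both sexes in 1 direction.

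The libraries bound what could have been missed. The median SE of a log2 change was 0.07. For 15230 genes (90%) the 95% interval of the fold change lay inside 1.5-fold in both directions, and for 16539 (97.8%) inside 2-fold. Taking only genes averaging 50 or more (13944), the shares were 97.4% inside 1.5-fold and 99.3% inside 2-fold. Within a single sex the shares inside 1.5-fold were 80.5% of all genes in females and 80.1% in males.

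The gene nearest to a call after Ank2 was 9930111J21Rik2, which falls outside the naming rule for predicted genes and was chosen after its values were seen. It was at 126.9 to 183.5 (median 159.2) in HT libraries, against 87.04 to 142.6 (median 113.6) in WT libraries, and all 10 HT libraries were above the WT median. Its log2 change was 0.46 (SE 0.09, limma adjusted p = 0.069). The limma adjusted p fell to 0.0385 without HT female replicate 2, to 0.0262 without HT male replicate 2 and to 0.0278 without WT female replicate 5. These libraries held the lowest HT value (126.9), the next lowest (131.4) and the highest WT value (142.6). Their removal widens the difference by itself, and on leaving out any other single library the gene was not called. In the drug-treated libraries the log2 change was 0.07. A neighbouring gene of nearly the same name, 9930111J21Rik1 (chromosome 11, 48946150 to 48979398, GRCm38), could share reads with it (chromosome 11, 49015874 to 49051242). That gene was at 28.24 to 62.98 in HT and 26.13 to 73.65 in WT libraries, with a log2 change of -0.24 (SE 0.16). For the sum of both genes the log2 change was 0.29 (SE 0.08, adjusted p = 1), a smaller value than that of 9930111J21Rik2 alone. The value of either gene is uncertain to the extent that reads were divided between them.

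Of the 20 genes named next by the smallest p, 10 in each direction, every adjusted p was 1 but that of Armh4 (0.984). Among the 10 with higher estimates in HT were 2 regulators of growth signalling. Nf1, which codes for the Ras inhibitor neurofibromin, was at 3582 to 4440 (median 3830) in HT and 3307 to 3818 (median 3520) in WT libraries, a log2 change of 0.14 (SE 0.04, adjusted p = 1). Csnk1g1, a casein kinase 1, was at 1225 to 1724 in HT and 1088 to 1386 in WT libraries (0.14, SE 0.04). For both the highest value was that of HT female replicate 1, and without this library the log2 changes were 0.11 each. Xaf1, an interferon-induced regulator of cell death, was at 55.36 to 115.9 in HT and 39.74 to 119 in WT libraries (0.45, SE 0.14), so the genotypes overlapped over most of their range. Top3a, a DNA topoisomerase (0.27), Hyal1, a lysosomal hyaluronidase (0.38), Tifab (0.29), Sh3glb1, the membrane-bending endophilin B1 (0.09), Mpeg1, a pore-forming protein of macrophages and microglia (0.16), Marf1 (0.10) and Tmem229a (0.13) completed the group. In Hyal1 and Nf1 all 10 HT libraries were above the WT median, which follows in part from choosing genes by p in these libraries.

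The 10 with lower estimates included regulators of trafficking, mitochondria and growth. Armh4 was at 995.8 to 1266 (median 1110) in HT and 1126 to 1502 (median 1250) in WT libraries, a log2 change of -0.18 (SE 0.05, adjusted p = 0.984). Adck1, a mitochondrial kinase-like protein, was at 796 to 920.2 in HT and 881.7 to 977.6 in WT libraries (-0.11, SE 0.03), and 7 HT libraries were below every WT library. The exocyst subunit Exoc7 was at 1586 to 1917 in HT and 1786 to 2088 in WT libraries (-0.14, SE 0.04). Mief2, which recruits the fission factor Drp1 to mitochondria, was at -0.27, and Mlst8, a subunit shared by both mTOR complexes, at -0.13. The others were Crmp1, a mediator of axon guidance (-0.11), Limd2 (-0.15), Fdxacb1 (-0.29), the cilium protein Cfap20 (-0.10) and the copine Cpne8 (-0.18). In 7 of these 10, which were Adck1, Exoc7, Limd2, Fdxacb1, Cfap20, Mief2 and Mlst8, all 10 HT libraries were below the WT median. The genes were chosen by p in these same libraries, so this count follows in part from the choice.

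The drug-treated libraries share no library with the vehicle set, but both sets use the same estimate of the spread. In the drug-treated libraries 11 of 20 (55%) had the same direction, and 3 of these had an unadjusted p under 0.05: Tmem229a (0.06), Marf1 (0.05) and Cpne8 (-0.11). Over all genes but Ank2, 56.7% had the same direction in the 2 sets.

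**Figure D2:**
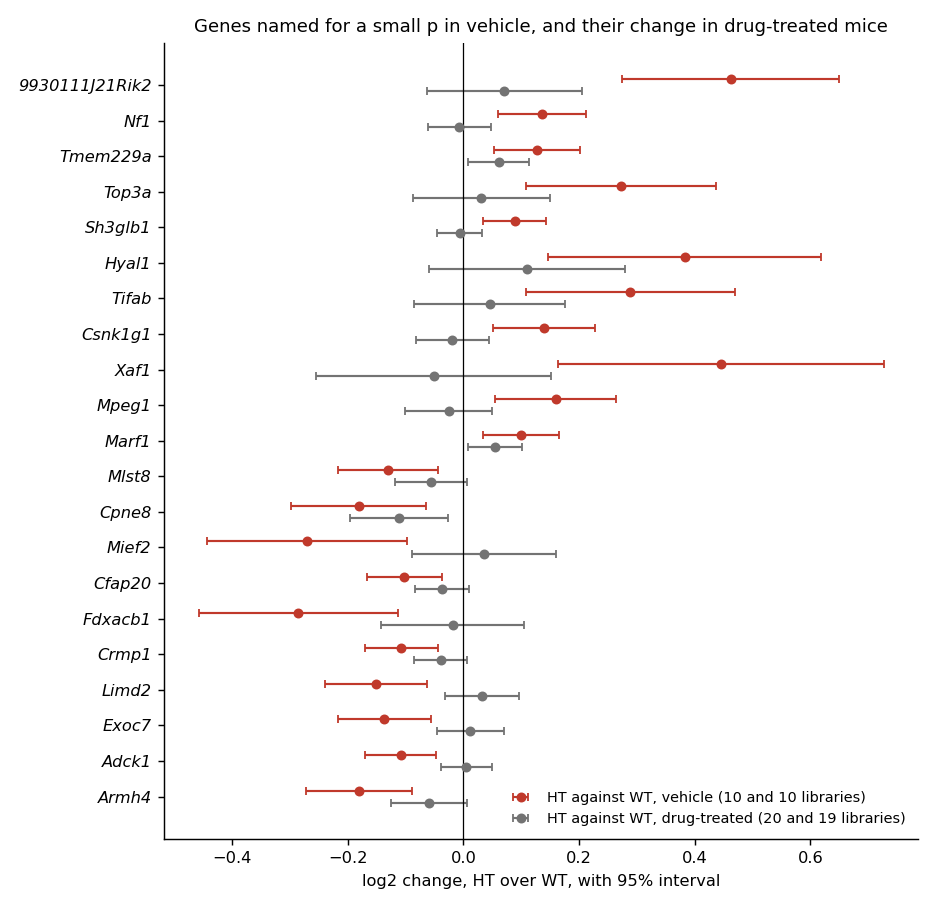
Log2 change of HT over WT with its 95% interval (horizontal axis) for 9930111J21Rik2 and the 20 genes with the smallest p in vehicle, in vehicle (red, 10 HT and 10 WT libraries) and in drug-treated mice (grey, 20 HT and 19 WT libraries). The red intervals exclude 0 by the choice of the genes; 18 of the 21 grey intervals include 0.

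The ankyrin and spectrin genes, the structural relatives and partners of ankyrin-B, were read as a list. Of 20 genes tested, Ank2 was the one called, 8 estimates were higher and 12 lower in HT, and the median log2 change was -0.0016. Ank3, which codes for ankyrin-G of the axon initial segment, was at 11947 to 15375 (median 13713) in HT and 11160 to 14126 (median 12895) in WT libraries. Its log2 change was 0.09 (SE 0.04, limma adjusted p = 1), and 8 of 10 HT libraries were above the WT median. In the drug-treated libraries it was 0.12 (limma adjusted p = 0.0339), with Ank3 at 0.03 (SE 0.04, adjusted p = 0.758) under fluoxetine and 0.22 (SE 0.04, adjusted p = 0.00629) under lithium. Ank1, coding for ankyrin-R, was at 1382 to 2301 in HT and 1595 to 2355 in WT libraries (-0.16, SE 0.09), and at 0.06 in the drug-treated libraries. Epb41l2, a band 4.1 protein that binds spectrin and actin, was at 0.08 (SE 0.04).

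Among 33 known binding partners and cargoes of ankyrin-B, 21 estimates were higher in HT, none was called, and none had an unadjusted p under 0.05 (median 0.01). The closest were Dag1, coding for dystroglycan, at 4064 to 4414 in HT and 3735 to 4270 in WT libraries (0.05, SE 0.03), and the adhesion molecule Nfasc, at 10627 to 14957 in HT and 9611 to 14666 in WT libraries (0.11, SE 0.08). The sodium pump subunit Atp1b1 was lower by estimate (-0.06). For the 28 genes of the axon initial segment and nodes, 16 were higher (median 0.01), with 10 higher without HT female replicate 1 and 9 without WT female replicate 1. The gene nearest to a difference was Mical3 (0.05, SE 0.04).

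No channel or synaptic gene was called in these lists. Of 35 potassium channel genes 20 were higher (median 0.01), with the Kv3 subunit Kcnc2 at 0.09 (SE 0.05), Kcnb2 at -0.15 (SE 0.12) and the inward rectifier Kcnj4 at -0.10 (SE 0.09). Kcnj4 was at 3552 to 4056 in HT and 3668 to 4429 in WT libraries. Its SE comes from the spread shared by all 59 libraries and not from the vehicle libraries alone. Of 18 calcium channel genes 8 were higher (median -0.01), with the T-type channels Cacna1h at -0.16 (SE 0.11) and Cacna1g at -0.10 (SE 0.09). Of 44 glutamate receptor and scaffold genes 24 were higher (median 0.0045). The NMDA receptor subunit Grin2a was at 6463 to 10504 in HT and 5668 to 8149 in WT libraries (0.12, SE 0.07). The presynaptic glutamate receptor Grm2 was at 1638 to 2743 in HT and 1852 to 2800 in WT libraries (-0.14, SE 0.08), and the scaffold Dlg3 at -0.04. Among inhibitory synapse and GABA receptor genes 7 of 21 were higher (median -0.0048), with the GABA-A subunit Gabrb1 at 0.09 (SE 0.06).

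Of 37 presynaptic release genes 15 were higher (median -0.01), and 7 without WT female replicate 1 (median -0.03). Unc13c, a vesicle-priming protein, was at 746.9 to 1009 (median 924.3) in HT and 632.4 to 912.9 (median 812.7) in WT libraries (0.22, SE 0.07), and the fusion regulator Cplx1 was at -0.07 (SE 0.03). Of 57 autism risk genes, Ank2 not among them, 31 were higher (median 0.01). Nf1 and Ank3 had an unadjusted p under 0.05, and these 2 of 57 are near the 3.42% of all genes. The transcription factor Bcl11a was at -0.09 (SE 0.05). In this list 42 of 57 were higher in females and 22 of 57 in males. Without HT female replicate 1 the female count was 33.

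Genes of energy metabolism were read by genome. Of 74 nuclear genes of oxidative phosphorylation 19 were higher in HT (median -0.03). The sexes had opposite medians, with 7 of 74 higher in females (median -0.07) and 50 of 74 in males (median 0.02). Without WT female replicate 1 the female count was 4 of 74 (median -0.08). In the drug-treated libraries 12 of 74 were higher (median -0.04). The complex III core protein Uqcrc2 was at 4898 to 5412 (median 5181) in HT and 5142 to 5901 (median 5504) in WT libraries (-0.10, SE 0.03). Sdhc of complex II (-0.12), Cyc1 of complex III (-0.10) and Atp5j2 of ATP synthase (-0.09) followed. The direction of this list over both sexes in vehicle rested on 1 library. HT female replicate 1 had a list level of -0.30, against -0.05 to 0.08 in the other 9 HT libraries, and without it 42 of 74 were higher (median 0.01), and 28 of 74 in females (median -0.03). The list level is the mean log2 deviation of the genes of a list from their own means over the 20 libraries. Of 13 mitochondrially encoded mRNAs 11 were higher (median 0.06), and 12 of 13 without that library. mt-Nd5, a complex I subunit, was at 129300 to 169520 (median 154250) in HT and 122270 to 159640 (median 136420) in WT libraries (0.12, SE 0.05), mt-Nd3 at 0.42 (SE 0.19) and mt-Cytb at 0.07 (SE 0.05). For ribosomal protein genes 31 of 63 were higher, and 52 of 63 without HT female replicate 1, with Rpl15 at 0.06. Transcript length moved with these lists in that library, and its part in them was not tested.

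Immediate early genes, which are induced by neuronal activity, had opposite medians in the sexes. In females 34 of 41 were higher in HT (median 0.11) and in males 8 of 41 (median -0.13), with none called in either sex or in the difference. Arc, a synaptic early gene, was at 8341, 1774, 4764, 1653 and 2023 in HT females, against 2888, 880.4, 2235, 2113 and 2644 in WT females. In males it was at 2535, 1495, 1985, 1385 and 2499 in HT, against 2028, 4392, 2210, 2561 and 1365 in WT. The high values were those of 2 HT females, replicates 1 and 3, and of 1 WT male, replicate 2, whose list levels (0.63, 0.35 and 0.33) were likewise the highest 2 of the HT females and the highest of the WT males. Npas4, an activity-dependent transcription factor, was at 509.7 to 1209 in HT and 340.4 to 1002 in WT libraries (0.34, SE 0.23), and Egr3 at 0.13 (SE 0.09). Without HT female replicate 1 the female count was 24 of 41 (median 0.05), and over both sexes it was 17 of 41 in place of 24.

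**Figure D3:**
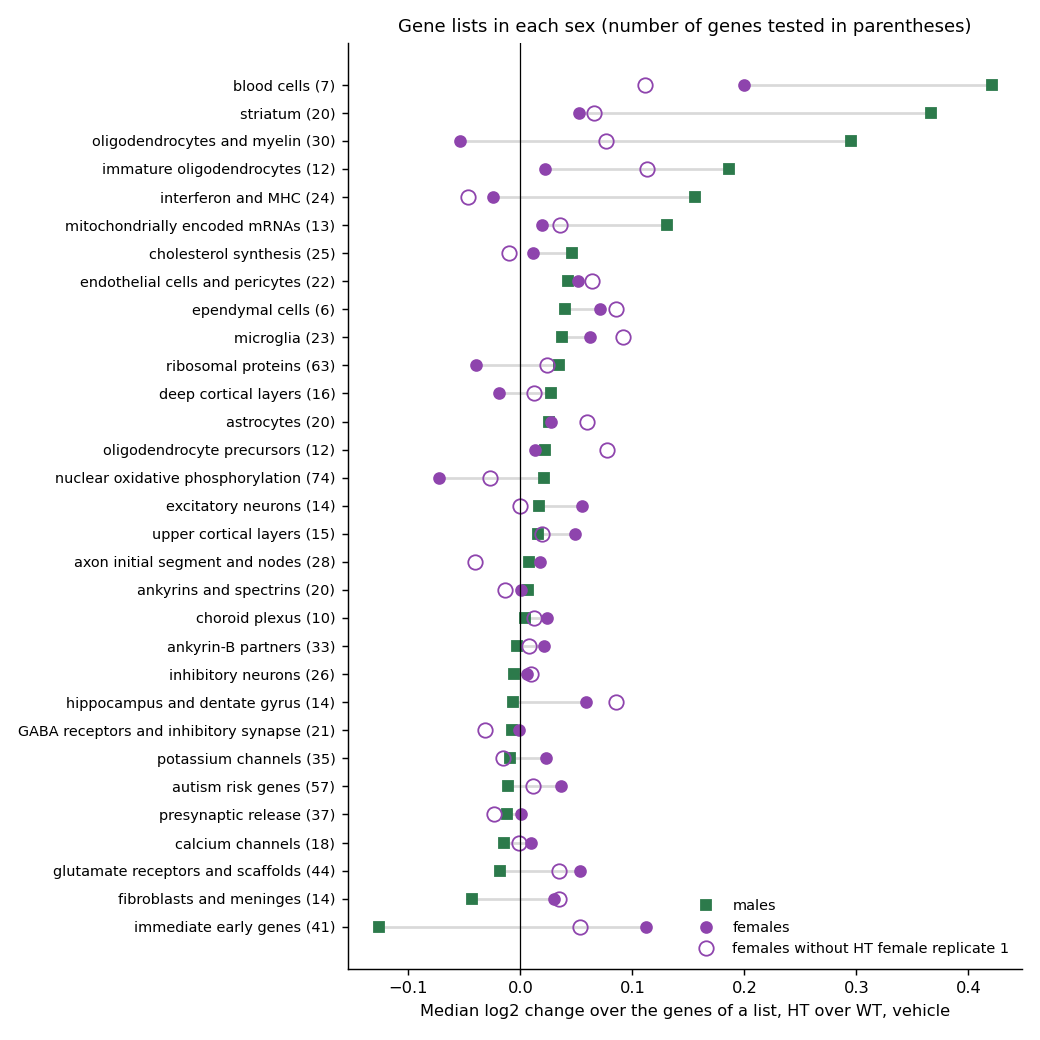
Median log2 change of HT over WT (horizontal axis) over the genes of 31 lists in males (squares), in females (filled circles) and in females without HT female replicate 1 (open circles); the olfactory bulb list, at -1.09 in males and 0.01 in females, lies outside the axis and is left out. Males and females are farthest apart for oligodendrocytes and myelin, striatum, immediate early genes and blood cells; no gene other than Ank2 was called in any list.

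Marker genes of cell types were read next, to see whether the dissected tissue was of like composition. In bulk RNA, fewer cells of a type and less RNA per cell cannot be told apart. The defining markers of cortex were present in all libraries: the excitatory neuron markers summed to 160300 to 205100 in HT and 143300 to 206300 in WT libraries, and those of inhibitory neurons to 54800 to 74040 in HT and 56420 to 85120 in WT libraries. Of 14 excitatory neuron markers 11 were higher (median 0.02), but 6 without WT female replicate 1 (median -0.02). Slc17a6, coding for the vesicular glutamate transporter 2, was at -0.17 (SE 0.08). Of 26 inhibitory neuron markers 12 were higher (median -0.02), with the neuropeptide genes Cort at 0.25 (SE 0.11) and Sst at 0.16 (SE 0.09). Of 20 astrocyte markers 13 were higher (median 0.02). The glial transcription factor Sox9 was at 502.7 to 677 in HT and 402.4 to 618.3 in WT libraries (0.21, SE 0.08), the glutamate transporter Slc1a2 was at 0.13 and the gap junction gene Gja1 at 0.08.

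Genes of oligodendrocytes and myelin had higher estimates in HT males and not in HT females. Of 30 genes of oligodendrocytes and myelin, 28 were higher in males (median 0.30) and 8 in females (median -0.05), none of them called. Mbp, coding for myelin basic protein, was at 73990, 71460, 73860, 101400 and 85460 in HT males, against 41900, 83020, 54680, 68820 and 66190 in WT males. In females it was at 32120, 63460, 60140, 53110 and 63940 in HT, against 45480, 47090, 51040, 65340 and 64260 in WT. All 5 HT males lay above 4 of the 5 WT males, WT male replicate 2 being above 3 of them, and HT female replicate 1 was the lowest library of all. Without that library 22 of 30 were higher in females (median 0.08), and without WT female replicate 1, 5 of 30 (median -0.11). Over both sexes the myelin regulator Myrf was at 0.19 (SE 0.14) and Opalin at 0.19 (SE 0.17). All 12 genes of immature oligodendrocytes were higher by estimate over both sexes (median 0.12, lowest 0.0004). Among them were Nkx2-2, a transcription factor of differentiation (0.25, SE 0.13), Bcas1 (0.16) and the receptor Gpr17 (0.14). In males 12 of 12 were higher (median 0.19), in females 8 of 12 (median 0.02) and in the drug-treated libraries 9 of 12. The female count was 12 without HT female replicate 1 and 6 without WT female replicate 1. Of 12 precursor genes 9 were higher (median 0.07), with Pdgfra, the PDGF receptor of these cells, at 0.13 (SE 0.07).

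Microglial, vascular and blood genes were higher by estimate in both sexes. Of 23 microglia markers 19 were higher (median 0.06), with the purine receptor P2ry12 at 1319 to 1768 in HT and 1237 to 1711 in WT libraries (0.16, SE 0.07), Csf1r at 0.13 (SE 0.07) and Cx3cr1 at 0.09 (SE 0.05). Of 22 endothelial and pericyte genes 18 were higher (median 0.04), with the VEGF receptor Kdr at 755.4 to 1213 in HT and 660.9 to 967.3 in WT libraries (0.20, SE 0.09) and Emcn at 0.17 (SE 0.09). Of 7 blood cell genes 6 were higher (median 0.32), among them the globin genes Hba-a2 (0.36, SE 0.17), Hba-a1 (0.32, SE 0.17) and Hbb-bs (0.35, SE 0.17), and Alas2, the first enzyme of haem synthesis in red cells (0.38, SE 0.20). In the drug-treated libraries 16 of 23 microglia, 14 of 22 endothelial and pericyte and 1 of 7 blood cell genes were higher. P2ry12, Kdr and Hba-a2 were there at -0.02, 0.01 and -0.01.

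In the other tissue lists no gene was called: 7 of 14 genes of fibroblasts and meninges were higher (median -0.0006), 6 of 10 of choroid plexus (0.05), 3 of 6 of ependymal cells (0.0075), 10 of 14 of hippocampus and dentate gyrus (0.02; 6 of 14 and -0.009 without WT female replicate 1), 9 of 16 of deep cortical layers (0.02) and 10 of 15 of upper layers (0.06).

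Interferon and MHC genes were higher by estimate in males, 22 of 24 (median 0.16), and 9 of 24 were higher in females (median -0.02). Without WT female replicate 1 the female count was 15 of 24 (median 0.02). The WT males had list levels of -0.22 to -0.09, and 3 of the 5 HT males, which spanned -0.18 to 0.29, were above all of them. Rtp4 (0.26, SE 0.13) and Ifit3 (0.21, SE 0.12) followed Xaf1 in this list. In the drug-treated libraries 4 of 24 were higher (median -0.07). Of 25 cholesterol synthesis genes 22 were higher (median 0.02), with Fdps at 0.06 and Lss at 0.08. Without WT female replicate 1 the count was 14 of 25 (median 0.0035), and in females 5 of 25 in place of 15.

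Markers of neighbouring brain regions differed between the male groups. The olfactory bulb list level was -1.39, -1.58, -0.96, -2.68 and 0.03 in HT males, against 0.06, 0.37, -0.35, -1.20 and -0.05 in WT males. In females it was 0.79, 0.72, 1.48, 1.23 and -0.30 in HT, against 1.83, 1.51, 0.30, 0.25 and -0.07 in WT. In males 4 of 5 HT libraries were below 4 of 5 WT libraries, and the female groups overlapped. All 15 olfactory bulb genes were lower in HT males (median -1.09) and 7 of 15 in HT females (median 0.01). Without WT female replicate 1, 14 of 15 were higher in HT females (median 0.25). Examples were Tbx21 (-0.83), Doc2g (-0.68) and Nmb (-0.48), over both sexes. The summed markers spanned 1569 to 16900 in HT and 3247 to 20960 in WT libraries. The striatum list level was 0.51, 1.39, -0.20, 0.72 and -0.09 in HT males, against -0.18, 0.65, -0.24, -0.23 and -0.27 in WT males, and -0.27 to -0.03 in HT females, against -0.45 to -0.06 in WT females. The striatal genes Ppp1r1b, coding for DARPP-32 (0.28, SE 0.17), Pde10a (0.23, SE 0.15), Adcy5 (0.13, SE 0.07) and the transcription factor Six3 (1.75, SE 0.82) were highest in HT male replicate 2.

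Without the 4 male libraries with a striatum level over 0.5 (HT replicates 1, 2 and 4 and WT replicate 2, a choice made after seeing the data), 12 of 20 striatal genes were higher in place of 20, and 4 of 15 olfactory bulb genes in place of 0. The interferon and MHC count in males was then 12 of 24 in place of 22, and that of immediate early genes 19 of 41 in place of 8. The oligodendrocyte and myelin count in males was 30 of 30 (median 0.43). The males left were 2 HT and 4 WT libraries. Neuronal lists moved as well: over both sexes the counts higher in HT were 9 of 35 in place of 20 for potassium channels, 6 of 28 in place of 16 for the axon initial segment and 9 of 37 in place of 15 for presynaptic release. They were 7 of 14 in place of 11 for excitatory neurons, 11 of 14 in place of 7 for fibroblasts and meninges and 19 of 20 in place of 13 for astrocytes. In males the oxidative phosphorylation count was 32 of 74 in place of 50. Ank2 stayed the sole gene called. The markers of neighbouring tissue thus moved with several list counts, and their part in them was not tested.

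**Figure D4:**
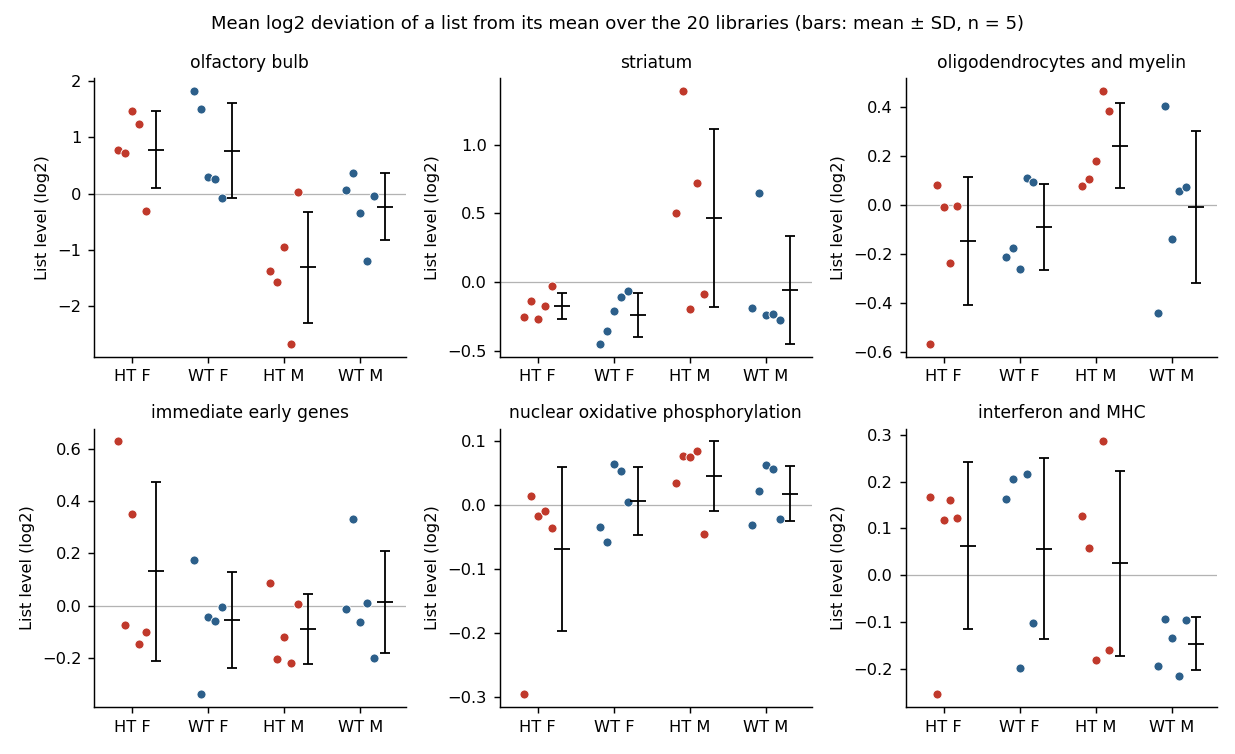
List level (mean log2 deviation of the genes of a list from their means over the 20 vehicle libraries, vertical axes) of 6 lists in each library; points run from replicate 1 to 5 in HT females (HT F), WT females (WT F), HT males (HT M) and WT males (WT M), with the mean ± SD of 5 libraries as bars. HT males are low for olfactory bulb (-2.68 to 0.03), and HT female replicate 1 is the highest library for immediate early genes (0.63) and the lowest for oxidative phosphorylation (-0.30) and myelin genes (-0.57).

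No gene was called for a difference between the sexes in the genotype effect (0 genes, 0% by limma), and 376 (2.22%) had an unadjusted p under 0.05. In females the genes of smallest p were Cd44, a hyaluronan receptor (0.41), Nf1 and Csnk1g1 upward, and Adck1, the mitochondrial ribosomal protein gene Mrpl57 (-0.39) and the prefoldin subunit Pfdn5 (-0.22) downward. In males they were Ccnyl1, a cyclin Y-like gene (0.42, SE 0.10, adjusted p = 0.29), Kif11, a kinesin of the mitotic spindle (0.55), and Xylb, xylulokinase (0.46) upward, and Armh4, Cpne8 and Gfm1, the mitochondrial elongation factor (-0.25), downward. Kif11 was at 115.3, 95.81, 91.07, 126.7 and 94.26 in HT males, against 72.28, 83.09, 58.98, 73.26 and 66.65 in WT males, with no overlap. Of all genes, 0.709% did not overlap in males. Kif11 was chosen by its p in these libraries, and its limma adjusted p in males was 0.834. In females it was at 71.77, 85.29, 73.74, 79.65 and 73.93 in HT, against 56.06, 72.89, 87.68, 75.14 and 74.10 in WT, where the genotypes overlapped. Top2a and Mki67 were chosen after their values were seen, as other genes of dividing cells. Their log2 changes were 0.89 (SE 0.32) and 0.62 (SE 0.27) in males, and -0.03 and 0.08 in females. Neither was called, and in the drug-treated libraries they were at -0.14 and 0.02. Genes of dividing cells were not read as a list, and genes chosen by their values do not show how such genes differed as a group. The genes of smallest p for the difference itself were Ccnyl1, Zbtb8os and Srrd, with larger changes in males than in females, and Zbtb49, Plag1 and the Mediator subunit Med1, with smaller ones.

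The surroundings of Ank2 (chromosome 3, 126921612 to 127499350, minus strand, GRCm38) were examined for differences in its neighbours. Of 55 genes tested within 5 Mb, 34 were higher and 21 lower in HT (median 0.01), and none was called. Of these, 3 had an unadjusted p under 0.05 (5.45%, against 3.42% of all genes). The nearest genes on the side of lower coordinates included Camk2d, a calmodulin-dependent kinase at 126596302 to 126846326 (-0.04, SE 0.10), and those on the other side Larp7, an RNA-binding protein at 127536714 to 127553349 (-0.05, SE 0.04). Camk2d was at 3460 to 4086 in HT and 3546 to 4187 in WT libraries, and its SE too comes from the spread shared by all 59 libraries. Fam241a (127869058 to 127896324) was at 0.19 (SE 0.09) in vehicle and 0.14 in drug-treated libraries, and the sphingomyelin synthase Sgms2 (131318985 to 131491411) at 0.61 (SE 0.22) and 0.20. Of the 55 genes, 4 are predicted genes that lie inside Ank2 on its own strand, 3 with higher and 1 with a lower estimate.

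Calls for the same genotype were more numerous under lithium. In 10 libraries per genotype limma called 93 genes under lithium (0.55%), against 2 under fluoxetine (0.0118%) and 1 in vehicle, although the shares with an unadjusted p under 0.05 were 16.3% under lithium and 15.7% under fluoxetine. The fluoxetine groups held 10 HT and 9 WT libraries. The lithium count was 47 with a length and GC trend removed, 31 with no filter and 1360 with array weights. With both drugs averaged, 105 of 16919 genes reached an adjusted p under 0.05 (0.621%), 51 higher and 54 lower in HT, and 18.3% had an unadjusted p under 0.05. The estimate was higher in HT for 49.4% of all genes and lower for 50.6%. In these libraries 0 of 15 olfactory bulb genes were higher (median -1.16, 1 called), 7 of 41 immediate early genes (median -0.18) and 29 of 30 oligodendrocyte and myelin genes (median 0.24), and the part of these differences in the calls was not tested. That count moved with the processing, to 64 with a transcript length and GC trend removed, 5 with no filter on low values and 636 with array weights. Of the 104 genes other than Ank2, 77 (74%) had the same direction in vehicle and 5 of these an unadjusted p under 0.05 there. Their median absolute log2 change was 0.16 in drug-treated and 0.05 in vehicle libraries, and 0 genes were called for the difference between vehicle and drug-treated libraries (0%; 5.32% of all genes had an unadjusted p under 0.05). For 65 of the 104 the 95% interval in vehicle did not include the drug-treated estimate, whose own error that interval leaves out. The 104 were chosen by their drug-treated estimates, so smaller values in vehicle follow in part from the choice. Over all genes but Ank2 the median absolute log2 change was 0.04 in vehicle and 0.05 in drug-treated libraries. mt-Nd6, a complex I gene, was at 0.38 (adjusted p = 0.00416 in limma) in drug-treated libraries (0.25 under fluoxetine and 0.51 under lithium) and 0.03 (SE 0.09) in vehicle libraries. Esco1, a cohesin acetyltransferase gene, was at -0.18 and -0.01.

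**Figure D5:**
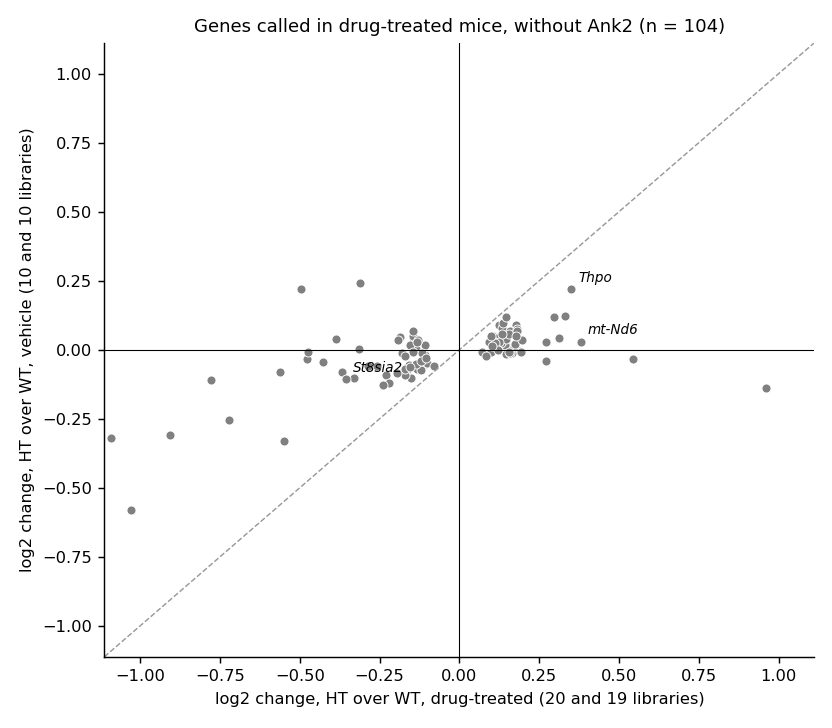
Log2 change of HT over WT in vehicle (vertical axis) against that in drug-treated libraries (horizontal axis) for the 104 genes other than Ank2 called in the drug-treated libraries; the dashed line marks equal changes. The genes were chosen on the horizontal axis. Most lie nearer to 0 on the vertical axis, with 77 of 104 on the same side of 0.

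With vehicle and drug-treated libraries weighted as 3 equal treatments, 42 genes were called (0.248%), 16 higher and 26 lower in HT, and 16% had an unadjusted p under 0.05. The count was 21 with the length and GC trend removed, 2 with no filter and 128 with array weights. Of those named, higher in HT were Ank3, Bcr, the lipoprotein receptor Lrp1, mt-Nd5 and mt-Nd6, the microtubule protein Map7, Thpo, and the synaptic proteins Shisa7, Ppp1r9b (spinophilin) and Shank1. Lower were Prdx2, a peroxidase of the cytosol, the peroxisomal import receptor Pex7, the ketone body enzyme Bdh1, the arginine methyltransferase Prmt1, the polysialyltransferase St8sia2, Lypla1, Snrk, Esco1, Chmp2b and Pheta1. The combined comparison includes the vehicle libraries, so a small p in vehicle follows in part from the choice. Of all genes, 3.42% had an unadjusted p under 0.05 in vehicle. In vehicle alone, Ank3 (0.09), mt-Nd5 (0.12), Lrp1 (0.10), Bcr (0.08), Prdx2 (-0.06) and Pex7 (-0.13) had an unadjusted p under 0.05, and the rest did not. Their adjusted p in the combined comparison was 0.0425 for Bcr and 0.0477 for the others.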

How the data were processed

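Prefrontal cortex mRNA was sequenced with a stranded TruSeq kit, per the labels' protocols. The tools named in the submitters' processing notes are Salmon 0.11.2, DESeq2 1.19.11 and R 3.6.0, with the build GRCm38, and their settings are not given in the sources used here. The deposited values are signal: estimated gene counts that the authors normalized, with no raw counts beside them. If whole reads had been counted, low values would be multiples of 1 step; within 0.1 steps this held for 45.3% to 72.8% of them by library (median 63.65%), so reads were not recovered and count tests were not run. Gene models came from GENCODE M21.

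The genes averaging 10 or more in the 59 libraries were analysed as log2(value + 1) with limma 3.58.1 in R 4.3.3 (trend, robust empirical Bayes), in 1 model with 12 group means and 47 residual degrees of freedom. Fold changes on this scale understate the change of low genes. Tests were two-sided, with Benjamini-Hochberg adjustment over all genes tested in each of 9 comparisons; adjusted p under 0.05 was called. Genotype effects are means over the sexes. The spread between libraries includes counting error. Plots used Python 3.11.15 and matplotlib 3.10.9. The test was checked on simulated data.

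The members and the 32 gene lists were chosen with earlier results of these data known. Named genes were Ank2; the 10 of smallest p in each direction in vehicle (mean of at least 50, same sign in both sexes); 3 per direction for each sex and for their difference; up to 10 per direction of those called in the combined comparison; the first in each direction in the drug-treated comparison; up to 4 of smallest p per list; and neighbours of Ank2. A few of the genes so chosen are not reported here. Predicted genes were counted only (5 passed over among the higher, 0 among the lower). Same-numbered HT and WT libraries of a sex correlated at -0.27 to 0.25. In 3 of 10 HT and 4 of 10 WT libraries the same number was the best match. The labels do not say what a number marks, and whether libraries of the same number share a batch was not tested.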

Additional observations from a re-analysis of the deposited data

Results flagged for a closer look

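A vehicle library was marked where, within its genotype of 10 libraries, its gap to the nearest other one was a share of the whole range above Dixon's 95% critical value. In 308 such groups 30 values were marked, where chance marks about 1 in 20 groups. HT female replicate 1 accounted for the most: a length slope of 0.10 (nearest 0.02), Nf1 at 4440 (4014), Csnk1g1 at 1724 (1466), Marf1 at 5145 (4466), Arc at 8341 (4764), Esco1 at 842.7 (708.4), Gpr17 at 2411 (3450), Atp5j2 at 1729 (2310) and Prdx2 at 4404 (5047). Its list levels were 0.10 for glutamate receptors and scaffolds, 0.13 for GABA receptors and the inhibitory synapse, -0.30 for nuclear oxidative phosphorylation, -0.35 for immature oligodendrocytes and -0.32 for ribosomal proteins.

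HT male replicate 2 had the highest Pde10a (5616) and Six3 (127.5) of the HT libraries, and WT male replicate 2 the highest striatum level (0.65), Ppp1r1b (2333) and Six3 (35.64) of the WT libraries. WT female replicate 1 had the lowest Csnk1g1 (1088), Gabrb1 (3575) and Fdps (1102) and the highest Cacna1h (4115). WT male replicate 4 was highest for mitochondrially encoded mRNAs (list level 0.33) and mt-Cytb (282700). HT male replicate 1 was low for fibroblast and meningeal genes (-0.55). Single values were Unc13c in HT female replicate 2 (746.9), Kcnj4 in HT female replicate 4 (3552), Bdh1 in HT male replicate 3 (2346) and Gfm1 in WT male replicate 5 (1734).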

How the results depend on the processing

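Ank2 was called in vehicle, in females and in males under every alternative run, with a log2 change in vehicle of -0.57 to -0.52. The number of genes called in vehicle was 1 under all planned fits but 1: without the filter it was 4. Leaving out 1 library gave 1 to 2, the second gene being 9930111J21Rik2. With no filter the count was 2 in females and 2 in males; in males it was 4 with array weights, 1 to 2 on leaving out 1 library, and 2 with olfactory bulb and striatum levels as covariates, an alternative added after seeing the data. The difference between vehicle and drug-treated libraries had 2 calls with array weights. Drug-treated counts (105) were 5 with no filter, 636 with array weights and 64 with the length and GC trend removed; counts over all 3 treatments (42) were 2, 128 and 21, and under lithium alone (93) 31, 1360 and 47. Under fluoxetine (2) array weights gave 4. The cause was not tested.

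The sign of small values turned in a few cases. The Ank2 difference between the sexes was 0.0241 with array weights, 0.0266 with the length and GC trend removed and 0.0143 without the 4 libraries of high striatum level; leaving out 1 library gave -0.0602 to 0.0413, the highest without WT female replicate 1. Tbx21 was at 0.0059 without those 4 libraries, Nmb at 0.0106 with the region covariates, and Arc at -0.0364 without HT female replicate 1 (up to 0.2632 without another). Rescaling by median of ratios or upper quartile moved the median of all genes to -7.17e-05 and 0.00172. With the replicate number as a block, in the 20 vehicle libraries, 1 gene was called in vehicle, Ank2 (795 genes at an unadjusted p under 0.05), and no call changed. Depth limits the genes of low value most.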
